A study of Mus musculus with 6 samples.

Results

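The genes described here are markers of endothelial cells, the cells that line blood vessels, and of the capillaries among them. They were taken from a list of 34 symbols, without the VEGF, Tie and Notch pathway genes, and 33 of them were measured by a probe set of their own, among 19938 genes so measured. Ly6c1, a surface protein of mouse endothelial cells and monocytes, was the member without one, since both of its probe sets were shared with its neighbour Ly6c2. Levels came from 6 Affymetrix Mouse Gene 1.0 ST arrays, each holding RNA of heart tissue from 6-month-old mice. The labels give "P180" as the strain.

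The Id cKO array carried the genotype Tie2Cre+Id1F/-Id3-/-, which combines a Cre transgene with a floxed and a null Id1 allele and no functional Id3. A second pair of arrays held Id cKO hearts treated with recombinant mouse IGFBP3 (treated Id cKO) and Id cKO hearts that were not (untreated Id cKO), and the design text calls this pair incubated. The sources used here give neither dose nor duration. Id control 1 was Id1F/+Id3-/-, with no Tie2Cre in its label, and Id control 2 was Tie2Cre+Id1-/-Id3+/-, so the Id controls lacked functional copies of Id1 or Id3 too. The remaining array was WT. Tie2Cre is active in endothelial cells and also in blood cells. The labels name no line or littermates and do not give the number of animals behind a sample. How far arrays of the same genotype would vary is therefore not known. The 2 Id controls differed in genotype and so came from different animals. Id control had 2 arrays and every other group 1, and a difference of 1 array from 1 array has no replicate check.

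Endothelial cells are joined to each other by adherens and tight junction proteins, and they carry receptors that read flow, lipids and growth factors. Transcription factors of the ETS and SOX families keep up much of this programme. In the heart, capillary cells lie beside every muscle cell and pass fatty acids and water to it. Id1 and Id3 are helix-loop-helix proteins without a DNA-binding region. They hold E proteins away from the E-box, the DNA motif CANNTG, and E proteins pair with endothelial factors such as Tal1.

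Promoters of 5 members are shown. Cldn5, Emcn and Cd34 were among the members 2-fold above WT in Id cKO. For Clec14a and Rgcc, and for Aqp1, whose window is not shown, Id cKO lay below WT and both Id controls. The sequences are from RefSeq, build GRCm38.p6, from 250 bases before to 50 bases after the gene's start, and 14 of the 34 members had such a window. Each reads 5′ to 3′ on the strand of the gene, and capitals mark the E-box CANNTG and the ETS motif AGGAAG or its reverse CTTCCT. The windows are chr16:18776597-18776896 (plus strand) for Cldn5, chr3:137340828-137341127 (plus) for Emcn, chr1:194938571-194938870 (plus) for Cd34, chr12:58269209-58269508 (minus) for Clec14a and chr14:79301586-79301885 (minus) for Rgcc.
Cldn5: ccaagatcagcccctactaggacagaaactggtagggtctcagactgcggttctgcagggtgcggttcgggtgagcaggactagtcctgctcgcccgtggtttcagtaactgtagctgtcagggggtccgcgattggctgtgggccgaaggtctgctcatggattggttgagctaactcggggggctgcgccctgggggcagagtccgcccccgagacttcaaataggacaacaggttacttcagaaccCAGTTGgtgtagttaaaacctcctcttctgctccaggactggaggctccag
Emcn: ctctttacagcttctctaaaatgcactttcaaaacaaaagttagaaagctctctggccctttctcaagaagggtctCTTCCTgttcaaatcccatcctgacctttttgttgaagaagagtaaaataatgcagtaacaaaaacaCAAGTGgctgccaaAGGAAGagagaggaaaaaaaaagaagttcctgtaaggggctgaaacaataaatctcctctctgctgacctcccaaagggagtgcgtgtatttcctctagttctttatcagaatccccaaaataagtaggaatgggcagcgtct
Cd34: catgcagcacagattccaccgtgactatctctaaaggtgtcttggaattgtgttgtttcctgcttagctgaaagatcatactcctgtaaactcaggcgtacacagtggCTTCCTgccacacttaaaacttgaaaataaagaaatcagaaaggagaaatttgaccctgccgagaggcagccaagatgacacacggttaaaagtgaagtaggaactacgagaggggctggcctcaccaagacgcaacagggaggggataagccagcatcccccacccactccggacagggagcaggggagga
Clec14a: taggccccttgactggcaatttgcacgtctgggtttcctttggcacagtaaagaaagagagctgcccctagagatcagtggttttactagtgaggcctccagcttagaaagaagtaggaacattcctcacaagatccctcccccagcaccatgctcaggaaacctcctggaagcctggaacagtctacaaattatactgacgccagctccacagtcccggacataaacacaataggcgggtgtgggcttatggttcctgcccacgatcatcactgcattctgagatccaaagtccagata
Rgcc: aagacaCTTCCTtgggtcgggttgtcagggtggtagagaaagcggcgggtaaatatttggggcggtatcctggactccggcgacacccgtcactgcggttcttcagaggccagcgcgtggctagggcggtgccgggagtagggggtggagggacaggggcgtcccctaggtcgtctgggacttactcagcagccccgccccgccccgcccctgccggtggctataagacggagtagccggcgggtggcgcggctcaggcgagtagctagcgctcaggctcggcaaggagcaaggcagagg

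The Cldn5 window held 1 E-box and the Emcn window 1 E-box and 2 ETS motifs. Cd34 and Rgcc had 1 ETS motif each, and neither motif was found in the Clec14a window. The Aqp1 window, which is not shown, held 1 E-box and 1 ETS motif. No base lay in both motifs in any of these windows. Over the 21 windows of the 14 members, searched on both strands, the E-box occurred in 14, against 72.3% of all 32851 RefSeq windows. The ETS motif occurred in 12 of the 21, against 35.4% of all windows. The E-box forms CAGCTG and CAGGTG occurred in 4 member windows each (16.3% and 20.2% of all windows), and the SOX motif AACAAT in 2 (10.7%). By gene, CAGCTG was found for 3 of the 14 members and CAGGTG for 4. The windows of Ly6c1 overlapped and held the same CAGCTG.

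The deposited levels are log2 values, so a difference of 1 is 2-fold. The Id cKO, Id control and WT arrays, called the first set here, had medians between 5.73 and 5.83, while those of the treated and untreated pair were 4.45 and 4.51. Levels as deposited were therefore compared within each set, and across sets after quantile normalization. A gene entered a comparison when its mean reached 6 in at least 1 of the groups. Cardiomyocyte markers lay at a mean of 13.09 in Id cKO, 13.19 and 13.11 in Id control and 13.11 in WT, so heart muscle transcripts were abundant on each array. After quantile normalization, the targeted gene Id1 was at 6.07 in Id cKO, 6.50 in treated and 6.51 in untreated Id cKO. It was at 7.68 and 6.00 in Id control and 7.79 in WT. On the same scale Id3 was at 4.24 in Id cKO, 5.03 in treated and 4.74 in untreated Id cKO. It was at 4.58 and 6.90 in Id control and 6.81 in WT. As deposited, the atrial markers averaged 7.05 in Id cKO, against 6.50 in Id control 1, 10.01 in Id control 2 and 6.33 in WT. Id control 2 thus stood apart. Xist, also as deposited, was between 8.15 and 8.62 in Id cKO and both Id controls and at most 4.03 on the other 3 arrays. The first 3 thus had a female pattern and the other 3 a male one. Sex therefore cannot be told apart from genotype in Id cKO against WT or in Id control against WT. In the comparison of 3 Id cKO arrays with 3 others, 1 array of 3 had the female pattern on the Id cKO side, against 2 of 3 on the other. The labels also carry 3 date codes, shared by Id cKO, Id control 2 and WT, by the treated and untreated pair, and held by Id control 1 alone.

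Id cKO was first compared with Id control, the comparison with 2 control arrays. Of the 33 measured members, 27 were higher in the mean, against 45.3% of all genes, and 6 were lower, against 54.7%, with a median difference of 0.39, against −0.03 over all 11310 genes compared. Id cKO lay above both Id controls for 23 members, against 33.5% of all genes, and below both for 4, against 41.9%. At 1.5-fold, 8 members were higher (3.95% of all genes were) and 0 at least 1.5-fold lower (4.23% of all genes). None was 2-fold apart from both Id control arrays, a limit that 0.698% of all genes passed upward and 0.424% downward. In heart tissue, more endothelial cells and more RNA per cell cannot be told apart.

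Markers of the cells around vessels had no common direction against Id control. Of 8 smooth muscle and pericyte markers, 4 lay above both Id controls in Id cKO and 3 below both, with a median of −0.07. The 4 higher ones were the pericyte genes of the list. Cspg4, a proteoglycan of pericytes, was at 7.93 in Id cKO, against 7.19 and 7.20 in Id control and 6.86 in WT. Kcnj8, a potassium channel of pericytes, was at 8.84 in Id cKO, against 8.28 and 8.12 in Id control and 7.92 in WT. Pdgfrb, the PDGF receptor of mural cells, was at 9.70 in Id cKO, against 9.02 and 9.23 in Id control and 8.78 in WT. These 3 were highest in Id cKO, and Rgs5 differed by 0.25. The smooth muscle genes Acta2, Myh11, Tagln and Cnn1 differed from the Id control mean by between −1.12 and −0.38. Acta2 was at 10.09 in Id cKO, against 11.10 and 11.33 in Id control and 9.81 in WT. It was the 1 marker of the list 2-fold lower than both Id controls, where 0.424% of all genes were. Against WT, by contrast, 7 of the 8 markers were higher in Id cKO and 1 lower, with a median of 0.28. Of all genes, 50.8% were higher than in WT. None of the 8 passed limma's adjusted limit, and their part in the members' differences was not tested.

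No member passed limma at an adjusted p of 0.05 over all genes in this comparison, where 2 genes did (0.0177%). At an unadjusted p under 0.05, 14 members were higher, against 6.08% of all genes, and 1 was lower, against 7.38%. The smallest adjusted p among the members was 0.2071, for Cldn5. The fit rests on 1 residual degree of freedom, from the Id control pair. These 2 arrays had different genotypes and date codes, so the limma SE and p do not measure a spread between replicates of 1 genotype.

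**Figure D1:**
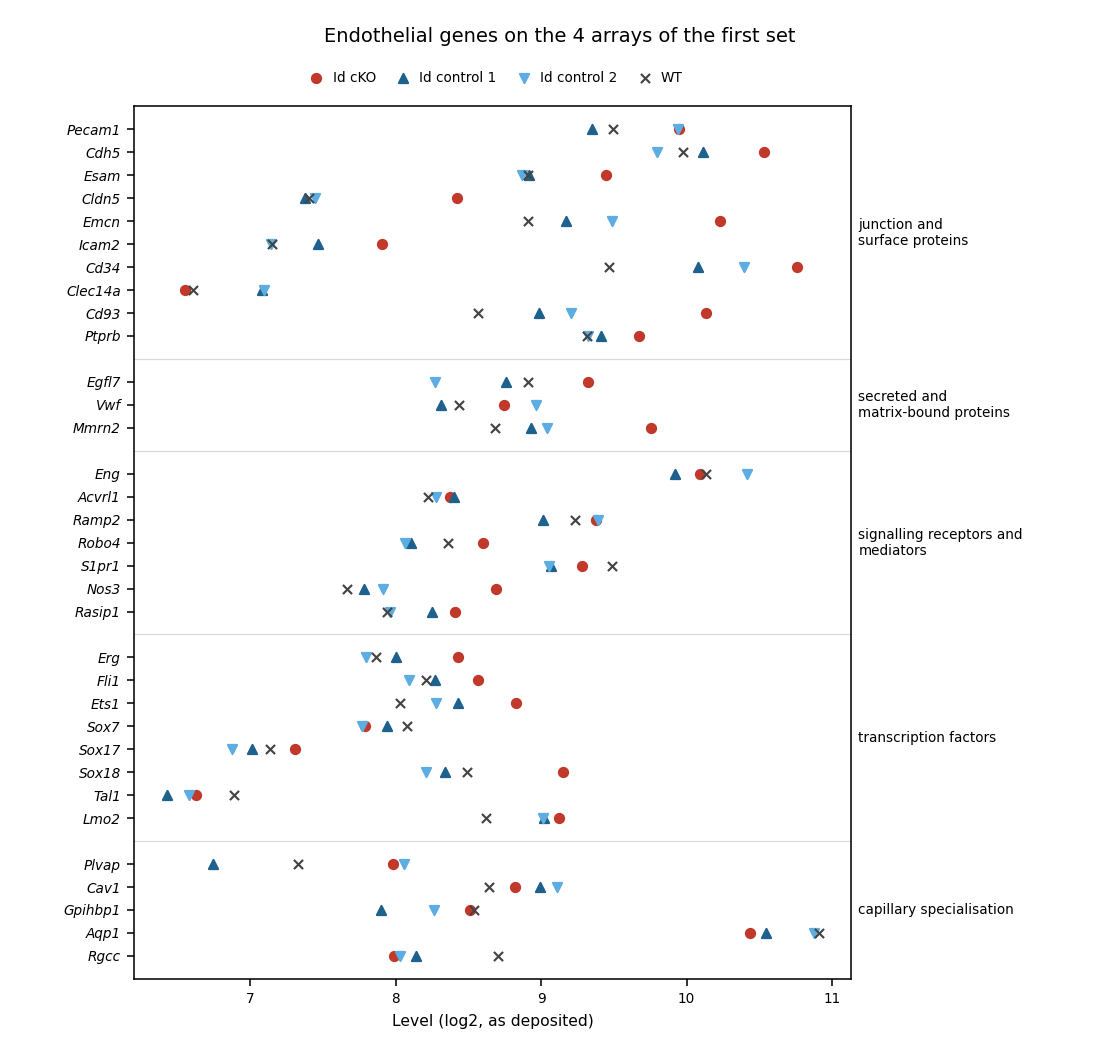
Level of each member (log2, as deposited) on the Id cKO, Id control 1, Id control 2 and WT arrays, 1 point per array, with the members grouped by role. Id cKO is the rightmost point for 20 of the 33 members and the leftmost for Clec14a, Aqp1 and Rgcc.

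Of the 8 members at least 1.5-fold higher, 4 were junction and surface proteins, a group with 9 of 10 members above both Id controls in Id cKO and a group median of 0.57. Cldn5, the tight junction protein claudin of brain and heart endothelium, was at 8.42 in Id cKO, against 7.37 and 7.45 in Id control and 7.40 in WT. It was 1.01 ± 0.14 higher than Id control (limma SE, adjusted p = 0.2071), and the 3 other arrays lay close together. Cd93, a surface lectin of endothelial cells, was at 10.14 in Id cKO, against 8.98 and 9.20 in Id control and 8.57 in WT. Its difference from Id control was 1.04 ± 0.16 (limma, adjusted p = 0.2117). Both genes lay above every array without the knockout, although neither passed the adjusted limit.

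Emcn, the sialomucin endomucin of capillaries and veins, was at 10.23 in Id cKO, against 9.17 and 9.49 in Id control and 8.91 in WT. It was 0.90 ± 0.19 higher than Id control (limma, adjusted p = 0.2363). Cd34, a sialomucin of endothelial cells that fibroblasts and blood progenitors also carry, was at 10.76 in Id cKO, against 10.08 and 10.39 in Id control and 9.46 in WT. Here the 2 Id controls stood between Id cKO and WT. Fibroblast markers were at a mean of 9.17 in Id cKO, 9.05 and 9.93 in Id control and 8.58 in WT, and their part in the Cd34 difference was not tested.

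Esam, an adhesion molecule of endothelial junctions, was at 9.45 in Id cKO, against 8.91 and 8.86 in Id control and 8.91 in WT. Icam2, an adhesion molecule for white cells, was at 7.91 in Id cKO, against 7.46 and 7.14 in Id control and 7.15 in WT. Cdh5, VE-cadherin of the adherens junction, was at 10.53 in Id cKO, against 10.11 and 9.80 in Id control and 9.97 in WT. All 3 genes were highest in Id cKO, by 0.56 (Esam), 0.61 (Icam2) and 0.58 (Cdh5) over the Id control mean. Ptprb, the phosphatase VE-PTP, differed by 0.31 in the same direction. Pecam1, the surface protein CD31, was at 9.95 in Id cKO, against 9.35 and 9.94 in Id control and 9.49 in WT. For Pecam1, Id cKO and Id control 2 lay within 0.01 of each other, so the difference depended on which control was used.

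Clec14a, a surface lectin related to Cd93, was the exception. Its level was 6.55 in Id cKO, against 7.08 and 7.09 in Id control and 6.61 in WT, and its difference from Id control was −0.54 ± 0.14 (limma, adjusted p = 0.2805). Id cKO and WT lay close together for this gene.

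Among the secreted and matrix-bound proteins, Mmrn2, an extracellular matrix protein that binds Cd93 and Clec14a, was at 9.75 in Id cKO, against 8.93 and 9.04 in Id control and 8.69 in WT. Its difference from Id control was 0.77 ± 0.14 (limma, adjusted p = 0.2325). Egfl7, a secreted protein of endothelial matrix, was at 9.32 in Id cKO, against 8.76 and 8.27 in Id control and 8.91 in WT. Both genes were highest in Id cKO. Vwf, von Willebrand factor, was at 8.75 in Id cKO, against 8.31 and 8.96 in Id control and 8.43 in WT, so Id cKO lay between the 2 Id controls.

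Nos3, the endothelial nitric oxide synthase, led the signalling genes. It was at 8.69 in Id cKO, against 7.78 and 7.91 in Id control and 7.67 in WT, a difference from Id control of 0.85 ± 0.15 (limma, adjusted p = 0.226). Robo4, a guidance receptor of endothelial cells, was at 8.60 in Id cKO, against 8.10 and 8.06 in Id control and 8.36 in WT. Rasip1, a Ras-interacting protein needed for vessel lumens in mice, was at 8.41 in Id cKO, against 8.25 and 7.96 in Id control and 7.94 in WT. These 3 were highest in Id cKO. The other signalling genes, Eng and Acvrl1 (receptors of the BMP and TGF-beta pathway), Ramp2 (a partner of the adrenomedullin receptor) and S1pr1 (a receptor of sphingosine phosphate), differed from the Id control mean by between −0.08 and 0.22. Id cKO was not the highest array for any of these 4.

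Of the transcription factors, 7 of 8 were above both Id controls, with a group median of 0.38. Sox18, a SOX factor of blood and lymph vessels, was at 9.15 in Id cKO, against 8.34 and 8.21 in Id control and 8.49 in WT. Its difference from Id control was 0.88 ± 0.15 (limma, adjusted p = 0.22). Erg, an ETS factor of endothelial identity, was at 8.43 in Id cKO, against 8.00 and 7.80 in Id control and 7.87 in WT. Ets1, another ETS factor, was at 8.83 in Id cKO, against 8.43 and 8.27 in Id control and 8.03 in WT. In these 3 genes Id cKO lay above all the other arrays of the first set.

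Fli1, an ETS factor also active in platelet precursors, was 0.39 higher than the Id control mean and Sox17, a SOX factor of arteries, was 0.37 higher. Sox7, the third SOX factor listed, was at 7.79 in Id cKO, against 7.94 and 7.77 in Id control and 8.07 in WT, and did not share the direction of Sox17 and Sox18. Tal1 and Lmo2, which meet E proteins in a complex known from blood and endothelial cells, were 0.13 and 0.10 higher than the Id control mean. Tal1 was at 6.63 in Id cKO and highest in WT, at 6.88. The 6 partners of that complex examined beside them were all higher than the Id control mean, with a median of 0.11, and 0 of them was 1.5-fold apart.

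**Figure D2:**
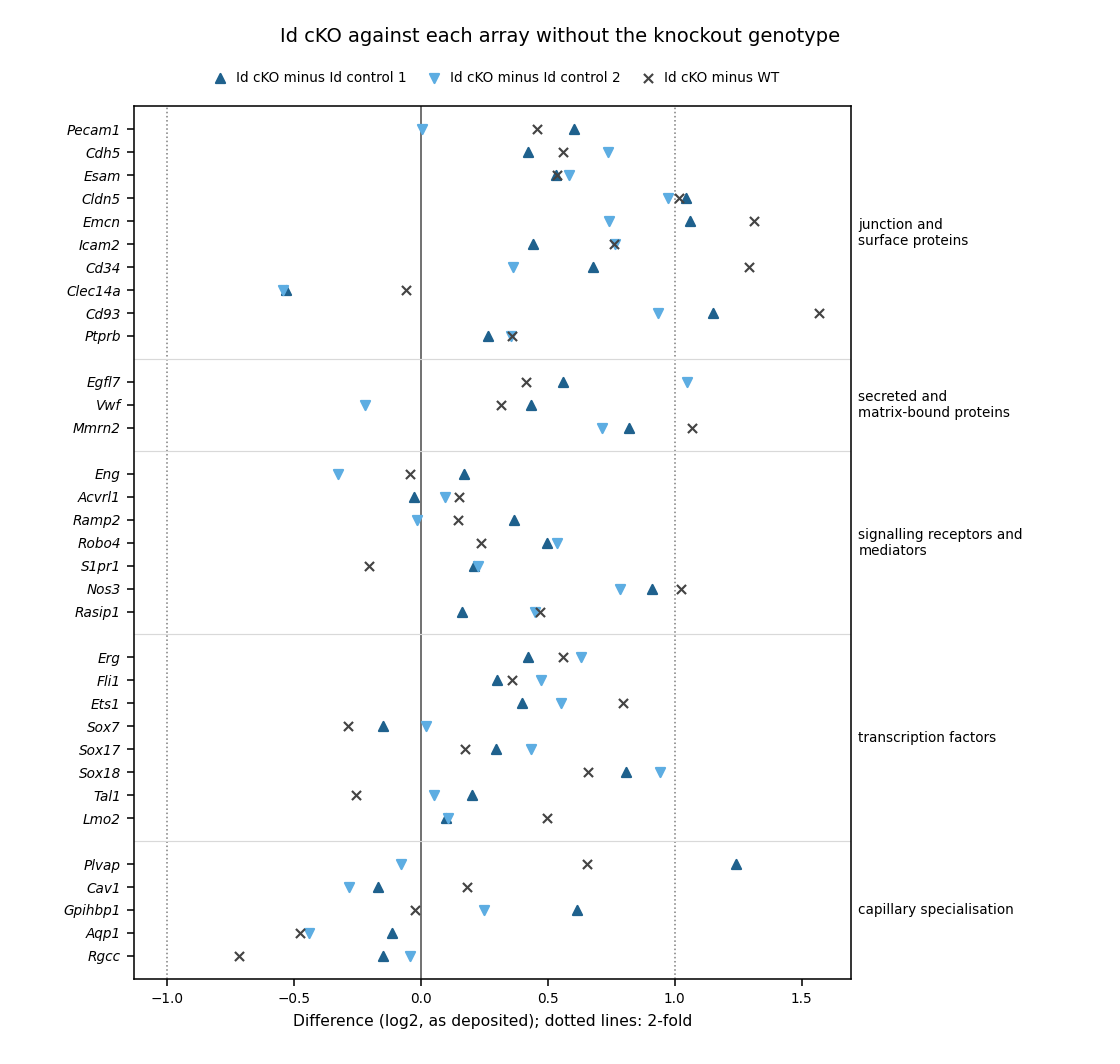
Difference of Id cKO from each of the arrays Id control 1, Id control 2 and WT (log2, as deposited), 1 point per array, with dotted lines at 2-fold. All 3 points of Cldn5, Cd93, Emcn, Mmrn2, Nos3 and Sox18 lie right of 0, from 0.66 for Sox18 against WT to 1.57 for Cd93 against WT, and the capillary genes at the bottom scatter on both sides of 0.

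The capillary genes had no common direction, with 2 of 5 higher and a median of −0.10 against Id control. Plvap, the diaphragm protein of fenestrae and caveolae, was at 7.98 in Id cKO, against 6.74 and 8.06 in Id control and 7.33 in WT. Its 2 Id control arrays were further apart than any other member's, at −1.32 for Id control 1 minus Id control 2, the 1 member 2-fold lower between them (1.04% of all genes were). Atrial markers were higher on the Id control 2 array, and their part in this was not tested. Gpihbp1, which holds lipoprotein lipase on the capillary wall, was at 8.51 in Id cKO, against 7.90 and 8.27 in Id control and 8.54 in WT.

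Aqp1, a water channel, was at 10.43 in Id cKO, against 10.55 and 10.88 in Id control and 10.91 in WT, the lowest of the first set. Rgcc, a regulator of the cell cycle that marks capillaries in mouse tissues, was at 7.99 in Id cKO, against 8.14 and 8.03 in Id control and 8.70 in WT. Cav1, the coat protein of caveolae, was at 8.82 in Id cKO, against 8.99 and 9.11 in Id control and 8.64 in WT. The probe sets shared by Ly6c1 and Ly6c2 were at 10.94 and 10.69 in Id cKO, against 10.95 and 10.80 in Id control 1, 11.12 and 10.86 in Id control 2 and 11.21 and 10.96 in WT. They cannot be assigned to Ly6c1.

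Against WT, a comparison of 1 array with 1 array, 25 members were higher in Id cKO, against 50.8% of all genes, and 8 were lower, against 49.2%, with a median of 0.41 against 0.00 over all 11478 genes compared. At 2-fold, 6 members were higher, against 2.2% of all genes, and 0 lower, against 0.967%. They were Cd93 by 1.57, Emcn by 1.31, Cd34 by 1.29, Mmrn2 by 1.07, Nos3 by 1.03 and Cldn5 by 1.02 on the log2 scale. At 1.5-fold, 10 were higher (6.94% of all genes) and Rgcc, at −0.72, was the 1 member lower (3.35%). This comparison and that with Id control share the Id cKO array, so their counts are not independent.

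Several members are also made by platelets or blood cells, among them Pecam1, Vwf, Fli1 and Lmo2. The platelet markers averaged 6.22 in Id cKO, against 6.34 and 6.33 in Id control and 7.02 in WT, and 5 of the 6 compared with WT were lower in Id cKO. The macrophage markers averaged 7.53 in Id cKO, against 7.98 and 8.01 in Id control and 7.68 in WT. For both lists the Id cKO mean lay below that of each Id control array. Each of the 5 measured T and B cell markers lay below 6 on every array.

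The 4 arrays of the first set were also compared with Id cKO against the other 3 together, an alternative added after the values were seen. Id cKO was above all 3 for 20 members, against 26.9% of all genes, and below all 3 for 3 members, against 31.1%. Id control 2 was the highest array for 6 members (27.9% of all genes), WT for 6 (21.7%) and Id control 1 for 1 (24.4%). Under limma 0 members passed the adjusted limit, which 0.159% of genes passed upward, and 13 were higher at an unadjusted p under 0.05 (6.52%). Cldn5 was 1.01 higher in Id cKO than the mean of the other 3. Id cKO was 1 array and the other 3 differed in genotype, so limma's p here does not measure a spread between replicates.

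The Id controls were then set against WT, with 19 members higher (60.1% of all genes were) and 14 lower (39.9%) and a median of 0.034, against 0.05 over all genes. None was 2-fold apart on both arrays, where 0.105% of all genes were higher and 0.0964% lower. No member and 0 of all genes passed limma's adjusted limit, and at an unadjusted p under 0.05 limma had 5 members higher (4.83% of all genes) and 2 lower (2.43%). Cd34, at 0.77 higher, and Rgcc, at −0.62, were the 2 members at least 1.5-fold apart in the mean, where 2.74% of all genes were higher and 0.938% lower. On both arrays, 12 members lay above WT (45.5% of all genes) and 10 below it (28.5%). The smallest adjusted p was 0.6291.

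Further endothelial genes that are no members were examined as a list of 20. In Id cKO, 15 were higher and 5 lower than the Id control mean, with a median of 0.39, and 12 lay above both Id controls. The 3 furthest apart were Ecscr, a surface protein of endothelial cells, at 1.00, Plxnd1, a semaphorin receptor, at 0.97, and Nostrin, which binds Nos3, at 0.93. None passed the adjusted limit of limma, with 0.2117 for Ecscr. At an unadjusted p under 0.05 in limma, 7 of the 20 were higher.

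A list of 11 further genes of cardiac capillaries had 4 higher and 7 lower, with a median of −0.21. Car4, the carbonic anhydrase of the capillary surface, was at 6.06 in Id cKO, against 7.42 and 7.78 in Id control and 8.69 in WT. Its difference from Id control was −1.54 ± 0.20 (limma, adjusted p = 0.2071), and it was below all the other arrays of the first set. Btnl9 was higher by 0.53, and Meox2, a homeobox factor of cardiac capillaries, differed by −0.51. Other lists of endothelial genes were compared with Id control too. Flow and haemostasis genes had 2 of 8 higher in Id cKO, with a median of −0.09. Artery and vein genes had 1 of 5 higher (median −0.13), endocardial markers 1 of 4 (−0.35) and activation genes 1 of 3 (−0.36). Lymphatic markers had 3 of 5 higher, with a median of 0.33. The direction thus differed between endothelial lists.

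**Figure D3:**
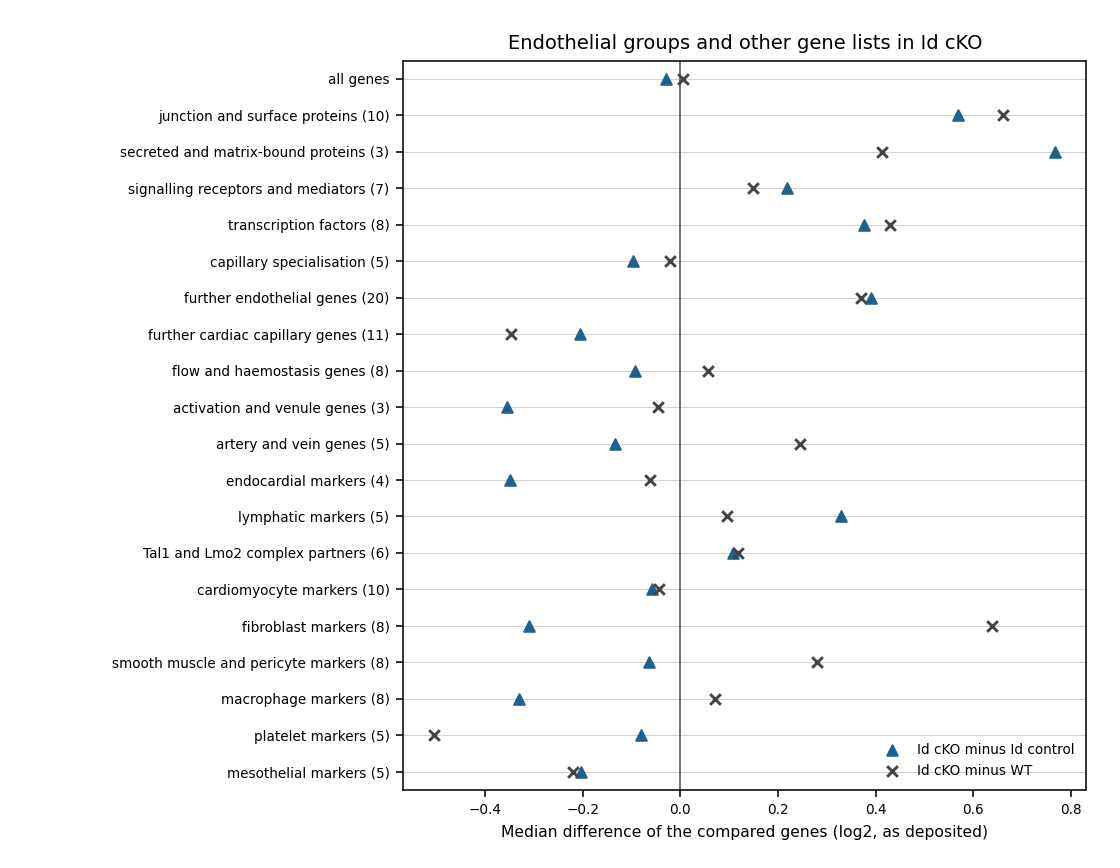
Median difference (log2, as deposited) of the compared genes of each list in Id cKO minus Id control (triangles) and Id cKO minus WT (crosses), with the number of genes compared in brackets. Junction and surface proteins lie at 0.57 and 0.66, capillary genes at −0.10 and −0.02, and cardiomyocyte markers at −0.06 and −0.04.

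Treatment with IGFBP3 was examined on the incubated pair, 1 array each, so no difference has a replicate check. Of 32 members compared, 21 were higher in the treated array, against 54.3% of all genes, and 11 were lower, against 45.1%, with a median of 0.20 against 0.05 over all 7474 genes. Tal1, at 5.58 in treated and 5.68 in untreated Id cKO, was below the limit of 6. No member was 2-fold apart, where 0.495% of all genes were higher and 0.803% lower. At 1.5-fold, 5 members were higher (7.65% of all genes) and 3 lower (6.74%).

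The groups ran in different directions. All 10 junction and surface proteins were higher in the treated array, with a median of 0.32. Cldn5 was at 7.72 in treated and 7.10 in untreated Id cKO. Cd93 was at 9.06 in treated and 8.46 in untreated Id cKO. These 2 were the junction and surface genes past 1.5-fold. Of the 5 capillary genes, 4 were higher too, with a median of 0.48. Cav1 was at 9.32 in treated and 8.49 in untreated Id cKO. Rgcc was at 8.21 in treated and 7.42 in untreated Id cKO. Plvap was the exception, at 6.73 in treated and 7.70 in untreated Id cKO.

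Of the signalling genes, 6 of 7 were lower in the treated array, with a median of −0.29. Ramp2 was at 8.55 in treated and 9.52 in untreated Id cKO, and Eng at 9.54 in treated and 10.10 in untreated Id cKO. Of the transcription factors, the 3 ETS factors were higher in the treated array, with Ets1 at 7.96 in treated and 7.31 in untreated Id cKO, Erg higher by 0.47 and Fli1 by 0.48. Of the SOX factors, Sox7 was at 6.56 in treated and 7.34 in untreated Id cKO, Sox18 differed by −0.49 and Sox17 by 0.12.

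**Figure D4:**
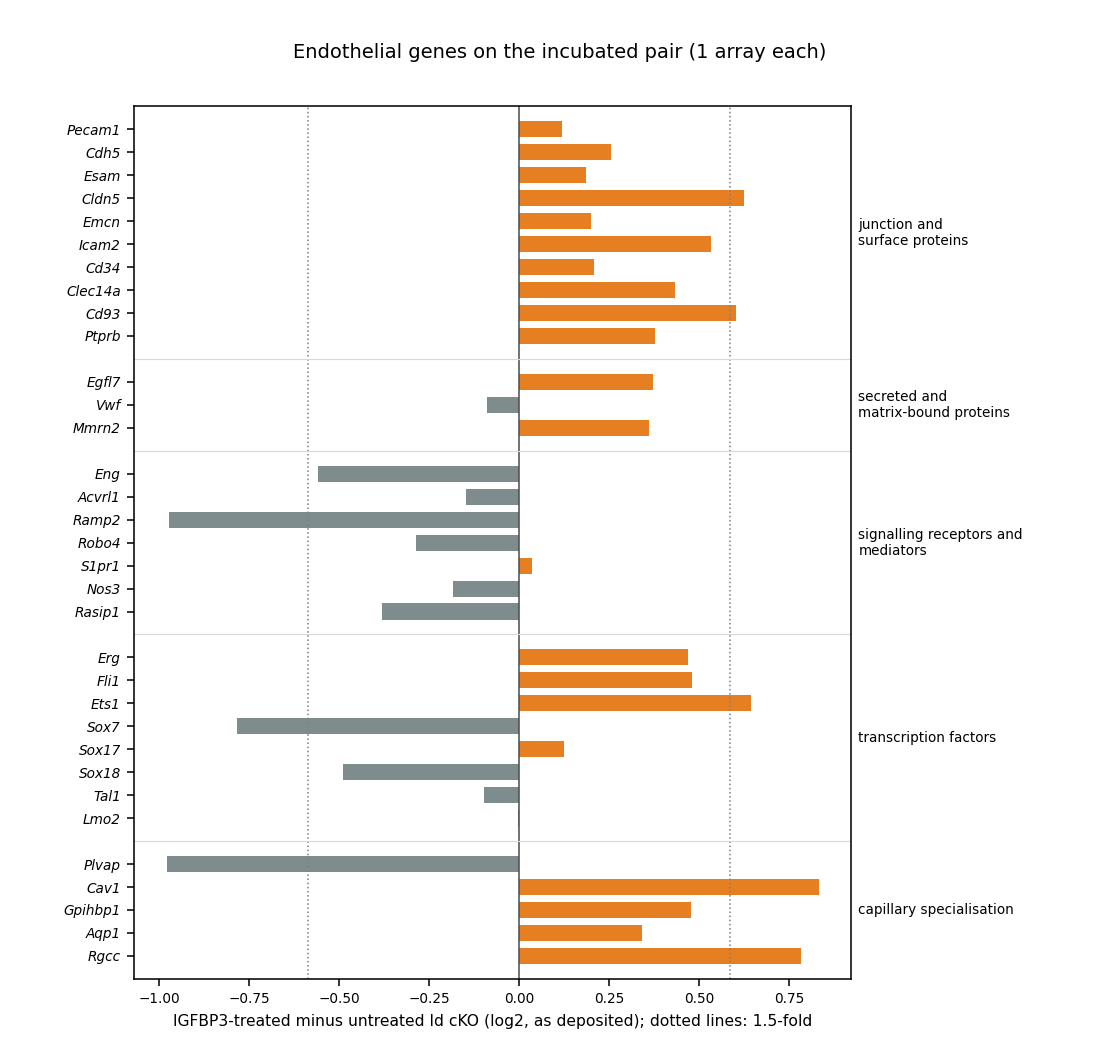
Difference of treated minus untreated Id cKO (log2, as deposited) for each member, 1 array each, with dotted lines at 1.5-fold. All 10 junction and surface proteins lie above 0, and 6 of 7 signalling genes below it.

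Beside these, the 11 further genes of cardiac capillaries had 10 higher in the treated array, with a median of 0.41, and the 20 further endothelial genes had 10 of 18 compared higher, with a median of 0.12. Cardiomyocyte markers had a median difference of 0.17, fibroblast markers of 0.34, and macrophage markers of −0.30. Smooth muscle and pericyte markers had a median of 0.31, with 5 of 7 higher in the treated array. All 3 platelet markers compared were higher, with a median of 0.35, and Ppbp, a platelet chemokine, was at 7.76 in treated and 6.70 in untreated Id cKO. The 2 red cell markers compared were higher too, with a median of 0.57. The part of these lists in the members' differences was not tested.

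All 6 arrays were compared after quantile normalization, 3 with the Id cKO genotype against 3 without it. All 33 members were higher in the mean of the Id cKO arrays, against 46.5% of all genes, and 0 were lower, against 53.5%, with a median of 0.71 against −0.04. In the first set alone, as deposited, 26 members were higher and 7 lower than the mean of the other 3 arrays. Of the 11310 genes compared there, 5341 were higher and 5969 lower. After quantile normalization, Clec14a was at 6.13 in Id cKO, 7.61 in treated and 7.22 in untreated Id cKO. It was at 6.67 and 6.69 in Id control and 6.19 in WT. For 22 members the 3 Id cKO arrays all lay above the other 3, against 14% of all genes, and 13.9% of the 8341 genes in the members' range of levels. By limma, 8 members passed the adjusted limit, all higher, where 2.55% of all genes were called higher and 1.81% lower. The 3 Id cKO arrays differed in treatment or incubation, and the other 3 in genotype. The limma SE and p of this fit thus do not measure a spread between replicates of 1 condition. An exact permutation test of 3 arrays against 3 for 1 gene cannot go below p = 0.1.

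The 8 were spread over 4 of the 5 groups of members. Nos3 was at 8.31 in Id cKO, 8.40 in treated and 8.63 in untreated Id cKO, against 7.36 and 7.47 in Id control and 7.31 in WT. It rose by 1.06 ± 0.15 (limma SE, adjusted p = 0.01414). Emcn was at 9.82 in Id cKO, 10.03 in treated and 9.91 in untreated Id cKO, against 8.74 and 9.03 in Id control and 8.56 in WT, and it rose by 1.15 ± 0.17 (limma, adjusted p = 0.01568). In both genes the 2 classes of arrays did not overlap.

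Cldn5 was at 8.04 in Id cKO, 8.51 in treated and 7.92 in untreated Id cKO, against 6.97 and 7.01 in Id control and 7.05 in WT. Cd93 was at 9.72 in Id cKO, 9.85 in treated and 9.31 in untreated Id cKO, against 8.56 and 8.75 in Id control and 8.22 in WT. Cldn5 rose by 1.14 (limma, adjusted p = 0.01957) and Cd93 by 1.12 (limma, adjusted p = 0.02768). The classes did not overlap in either gene. Sox18 was at 8.76 in Id cKO, 8.99 in treated and 9.55 in untreated Id cKO, against 7.91 and 7.76 in Id control and 8.14 in WT. It rose by 1.16 (limma, adjusted p = 0.03194), with the untreated array highest.

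Esam was at 9.05 in Id cKO, 9.50 in treated and 9.38 in untreated Id cKO, against 8.49 and 8.41 in Id control and 8.56 in WT. Cd34 was at 10.37 in Id cKO, 11.28 in treated and 11.14 in untreated Id cKO, against 9.66 and 9.93 in Id control and 9.09 in WT. Mmrn2 was at 9.34 in Id cKO, 9.31 in treated and 8.99 in untreated Id cKO, against 8.51 and 8.58 in Id control and 8.34 in WT. The Id cKO arrays lay above the others in each of these genes. Esam rose by 0.82 (limma, adjusted p = 0.03468), Cd34 by 1.37 (adjusted p = 0.03928) and Mmrn2 by 0.74 (adjusted p = 0.04232). Cd34 was higher in the incubated pair than in Id cKO, whereas Mmrn2 was not.

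The capillary genes gave 0 calls, against 2.55% of all genes called higher. They had 0 members with all 3 Id cKO arrays above the other 3, against 14% of all genes, although all 5 were higher in the mean. With 5 genes, these counts of 0 do not set the group apart from all genes. Of the 20 further endothelial genes, Ecscr passed, at 0.94 higher (limma, adjusted p = 0.0325). The E protein gene Tcf4, from the list of Tal1 and Lmo2 partners, passed at 0.77 (limma, adjusted p = 0.04882).

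The incubated pair made up 2 of the 3 Id cKO arrays, so genotype and array set are partly confounded. With the date code as a block, which leaves Id cKO against WT and Id control 2, 0 members passed limma and the median was 0.36. The calls also rest on single arrays: 0 members passed without WT, without Id control 1 or without the treated array, 2 without the untreated array, 3 without Id control 2 and 24 without the Id cKO array, when 3302 of all genes passed as well. Other lists differed in the same comparison. The 7 smooth muscle and pericyte markers compared had a median difference of 0.70, and 4 of them, Pdgfrb, Rgs5, Kcnj8 and Cspg4, had all 3 Id cKO arrays above the other 3. Kcnj8 was 1.95-fold higher (limma, adjusted p = 0.02718), and Cspg4, at 2.14-fold, and Pdgfrb, at 1.67-fold, passed too. Platelet markers had a median of 0.40 and red cell markers of 0.41. Macrophage markers had 7 of 8 higher (46.5% of all genes were), with a median of 0.40. They averaged 7.12 in Id cKO, 8.00 in treated and 8.29 in untreated Id cKO, against 7.56 and 7.58 in Id control and 7.31 in WT. Activation genes of endothelium (Vcam1, Icam1, Sele and Ackr1) averaged 5.70 in Id cKO, 7.87 in treated and 8.19 in untreated Id cKO, against 5.83 and 5.91 in Id control and 5.66 in WT. Fibroblast markers averaged 8.77 in Id cKO, 9.60 in treated and 9.59 in untreated Id cKO, against 8.64 and 9.49 in Id control and 8.22 in WT. Cardiomyocyte markers averaged 12.86 in Id cKO, 12.55 in treated and 12.43 in untreated Id cKO, against 12.98 and 12.86 in Id control and 12.89 in WT. The part of these lists in the members' differences was not tested.

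**Figure D5:**
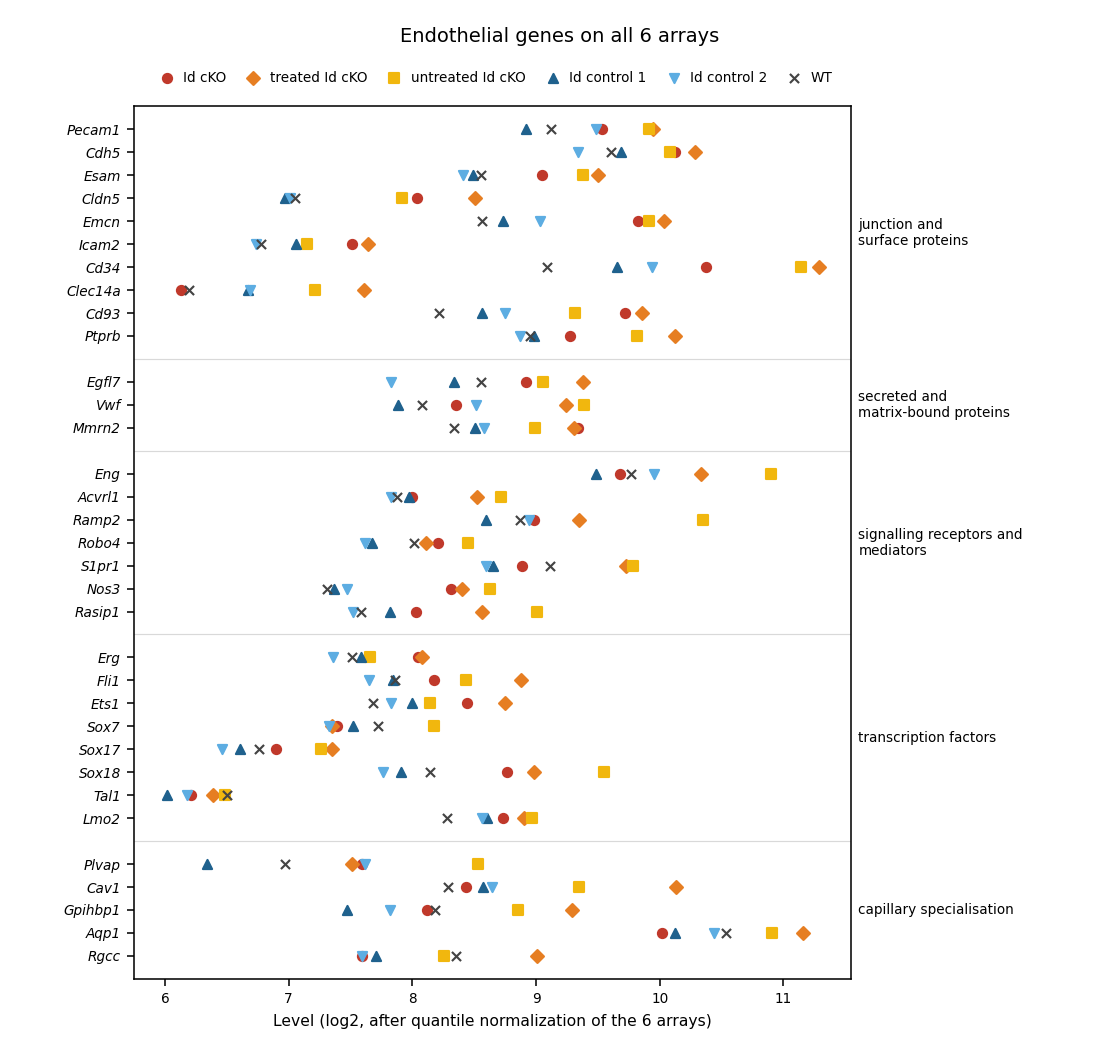
Level of each member (log2, after quantile normalization) on all 6 arrays, 1 point per array, with the 3 Id cKO arrays in red, orange and yellow. For Cldn5, Emcn, Cd93, Nos3 and Sox18 the 3 Id cKO points lie right of the other 3, and for Sox7, Tal1, Aqp1 and Rgcc the 2 classes overlap.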

How the data were processed

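RNA of 6 heart samples was measured on 1 Affymetrix Mouse Gene 1.0 ST array each. The authors deposited log2 levels for each probe set, made with Affymetrix Expression Console and RMA per the submitters' processing notes, which give no versions. RMA corrects background, aligns the arrays' distributions and summarises probes, but the 2 sets of arrays were not on the same scale. Of 35557 probe sets, 21789 named 1 gene symbol in the platform annotation, 1621 several and 12147 none. The probe set with the highest mean stood for each of 19938 genes. Groups came from the labels. The number of arrays limits the precision.

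Comparisons within a set used the deposited values. limma 3.58.1 (R 4.3.3) was run on all 6 arrays, taken as 5 groups or as 2 classes after quantile normalization, with Benjamini-Hochberg adjustment over all genes whose higher mean was at least 6. The scripts were tested on simulated data. Lone arrays were assumed to vary like the Id control pair.

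The members and lists were chosen with earlier results of these data known. Per-array values are given for members 2-fold apart in Id cKO from both Id control arrays or from WT, 1.5-fold apart between treated and untreated, called by limma, or among the 3 furthest apart in their group, and for other members chosen after their values were seen. The alternatives tried were other floors, all probe sets, median centring, cyclic loess, quantile normalization, leaving out each array, the date code as a block and the first set alone.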

Additional observations from a re-analysis of the deposited data

How the results depend on the processing

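The member medians of Id cKO against Id control (0.36 to 0.43) and against WT (0.37 to 0.48) kept their direction under every alternative run. Beside the 127 genes 2-fold apart from both Id controls, a floor of 8 gave 73, and leaving out an Id control array gave 286 to 300. Members passing that limit numbered 1 (Cldn5) after cyclic loess or quantile normalization, and 1 to 4 without an Id control array. limma called 0 genes in place of 2 when every probe set was tested. Against WT, 364 genes were 2-fold apart, 223 at a floor of 8, and limma called 4 genes and 0 members. For Id control against WT, 23 genes became 12 at a floor of 8, 62 over all probe sets and 57 to 203 with 1 Id control array, and limma called 1 gene with no floor or with median centring. The member median there, 0.034, was 0.127 after median centring, −0.030 after cyclic loess and −0.037 after quantile normalization, and the cause was not tested. For treated against untreated, 97 genes became 178 with no floor, 39 at a floor of 8, 270 over all probe sets, 146 after cyclic loess and 0 under limma. Members 2-fold apart numbered 1 after cyclic loess, with a median of 0.10, and 2 (Ramp2 and Plvap) after quantile normalization. Over all 6 arrays, 3216 genes separated by order became 5111 with no floor, 1422 at a floor of 8 and 6562 in the first set alone, and 3812 to 6051 with an array left out. limma's 441 genes became 189 over all probe sets, 59 with the date code as a block, 26 in the first set alone and 24 to 3302 with an array left out. Its 8 members became 3, 0, 0 and 0 to 24 under the same alternatives. The member median of 0.71 was 0.36 with the date code as a block and 0.36 in the first set alone, and 0.56 to 0.89 with an array left out. Leaving out an Id control array leaves the 5-group limma no residual degrees of freedom, so only sizes were counted. No paired analysis was possible because the labels give no replicate numbers.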

Other observations

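Endothelial genes outside the members' lists added a few large differences. Tfpi, the inhibitor of the tissue factor pathway, was at 8.16 in Id cKO, against 9.34 and 9.16 in Id control and 9.06 in WT, and differed from Id control by −1.09 ± 0.15 (limma, adjusted p = 0.2071). After quantile normalization, Tfpi was at 7.77 in Id cKO, 8.34 in treated and 7.59 in untreated Id cKO. It was then at 8.91 and 8.70 in Id control and 8.70 in WT. Lyve1, a hyaluronan receptor of lymph vessels that some macrophages carry, was at 7.18 in Id cKO, against 8.28 and 9.16 in Id control and 8.32 in WT. Both genes were lowest in Id cKO among the 4 arrays of the first set, but neither passed the adjusted limit. Sele, the adhesion molecule E-selectin of activated endothelium, was at 7.72 in treated and 8.40 in untreated Id cKO as deposited. The first set has another scale, and there Sele was at 6.06 in Id cKO, against 5.97 and 5.94 in Id control and 5.80 in WT.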
